A study of Mus musculus with 2 samples.

Results

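The miR-18 and miR-19 families were followed at the level of single small RNA sequences in J1 mouse embryonic stem cells (mESCs). Their members were the 5 hairpins Mir18, Mir18b, Mir19a, Mir19b-1 and Mir19b-2, out of 1174 named miRNA hairpins in the GENCODE M21 annotation. A tag, meaning a distinct read sequence with its count, was taken as a member tag when it matched one of these hairpins perfectly over its whole length. Of the 8598 tags that matched any named hairpin in either library, 90 matched a member hairpin, 73 of them seen in control cells and 64 in PD-treated cells. No member tag of a mature arm matched a hairpin outside the 5.

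J1 is an established mESC line, grown here on gelatin without feeder cells, with knockout serum replacement and 1000 U/mL LIF, a cytokine that supports self-renewal. The cells received 1 μM PD0325901 (PD), an inhibitor of the kinase MEK that blocks ERK1/2 signaling, or DMSO in the same volume as control, for 24 h. Both groups had LIF, and the RNA of 3 experiments per treatment went into a single small RNA library (1 library per treatment, no replicates). The comparison asks how the small RNAs of mESCs differ when MEK/ERK signaling is inhibited.

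Both families come from a pair of related polycistronic transcripts, in which several hairpins are cut from a single primary RNA, together with members of the miR-17, miR-20 and miR-92 families. A mature miRNA finds its targets mainly through its seed, bases 2 to 8 counted from the 5′ end, so that miRNAs with the same seed are grouped as a family. The miR-17-92 cluster is best known as an oncogenic cluster that promotes proliferation. Drosha and Dicer cut both arms of a hairpin, and usually one arm is kept by Argonaute while the other is degraded.

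The mature sequences of the arms that carried most reads are shown first, because the 2 members of each family differ at only 1 or 2 bases. The sequences are those of RefSeq on GRCm38.p6, written 5′ to 3′ with the seed in capitals.

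miR-18a-5p: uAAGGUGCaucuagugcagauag

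miR-18b-5p: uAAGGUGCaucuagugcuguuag

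miR-19a-3p: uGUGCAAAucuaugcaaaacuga

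miR-19b-3p: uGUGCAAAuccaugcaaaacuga

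Counted from 1 at the 5′ end, miR-18b-5p differs from miR-18a-5p by A18U and A20U, and miR-19b-3p differs from miR-19a-3p by U11C. The seed AAGGUGC was found in no RefSeq mouse miRNA other than miR-18a-5p and miR-18b-5p, and GUGCAAA in none other than miR-19a-3p and miR-19b-3p. On GRCm38, miR-18a-5p lay at chr14:115043867-115043889, miR-19a-3p at chr14:115044048-115044070 and the Mir19b-1 copy of miR-19b-3p at chr14:115044358-115044380, all on the plus strand within an exon of Mir17hg, the noncoding host gene of the cluster. On the X chromosome, miR-18b-5p lay at chrX:52742381-52742403 and the Mir19b-2 copy of miR-19b-3p at chrX:52741991-52742013, both on the minus strand, where no gene other than the hairpin was annotated. The copies of miR-19b-3p are identical, so nearly all of its reads (925 of 929 in control and 1214 of 1216 in PD) matched both hairpins, and they were counted once.

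The opposite arms, which carried few reads, are shown because their seeds separate them from the families above and, for miR-18, from each other.

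miR-18a-3p: aCUGCCCUaagugcuccuucug

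miR-18b-3p: uACUGCCCuaaaugccccuucu

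miR-19b-1-5p: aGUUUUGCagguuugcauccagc

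miR-19b-2-5p: aGUUUUGCagauuugcaguucagc

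miR-19a-5p, most frequent tag: tAGTTTTGcatagttgcactac

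For miR-19a-5p the most frequent tag of the libraries stands in for a RefSeq sequence, at chr14:115044012-115044033 on the plus strand. The seed of miR-18b-3p, ACUGCCC, is that of miR-18a-3p, CUGCCCU, moved by 1 base, and miR-18a-3p shared its seed with miR-7069-3p.

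Sequencing gave 18870345 clean reads from control cells and 20944808 from PD-treated cells, of which 2180916 (11.6%) and 2111203 (10.1%) matched a named hairpin. The 5 member hairpins took 1623 reads in control and 1953 in PD, which is 0.0744% and 0.0925% of the hairpin reads. Levels are given as RPM, the reads per 1000000 clean reads of the library, with exact Poisson 95% intervals, and fold changes are RPM in PD over RPM in control, with Clopper-Pearson 95% intervals. With no replicates, every interval and p-value covers the counting of reads only, which after PCR are not independent molecules, and compares the 2 libraries rather than the treatments. Detected miRNAs were those that reached 1 RPM in either library. Among these 499, the median log2 fold change was -0.17, and 337 were lower in PD. In control, 63.0% of the clean reads were 20 to 24 nt long, and in PD 52.0% were. What these differences between the libraries contribute to a fold change was not tested. The miR-290 to miR-295 hairpins, which mark mESCs, summed to 33056 RPM in control and 28348 RPM in PD, with all 6 at 1 RPM or more. A list of 11 hairpins known from differentiated cells (let-7 hairpins, Mir122, Mir1a-1 and Mir124a-1) was also at 1 RPM or more throughout and summed to 10288 and 9982 RPM. Within it Mir122 was lowest (2.91 and 2.01 RPM) and Mir124a-1 differed most as a ratio (257 and 476 RPM), and the part of this list in the results was not tested.

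miR-19b-3p was the most abundant member and, with all clean reads as denominator, the only detected arm of the families that was higher in PD by the exact test. Under the other denominators miR-18a-5p was higher as well. It had 929 reads in control and 1216 in PD, which is 49.2 RPM (46.1 to 52.5) and 58.1 RPM (54.8 to 61.4). Its fold change was 1.18 (1.08 to 1.29), with an adjusted p of 5.36e-04 (2-sided exact binomial test, Benjamini-Hochberg over 499 detected miRNAs). The intervals of its 2 levels did not overlap, but the difference was smaller than 1.5-fold, the size at which a miRNA was called changed.

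miR-19a-3p shares the seed of miR-19b-3p and was near the limit of detection. It had 24 reads in control and 25 in PD, or 1.27 RPM (0.815 to 1.89) and 1.19 RPM (0.772 to 1.76). Its fold change of 0.938 (0.514 to 1.72, adjusted p = 0.947, exact binomial test) had an interval that held 1.5-fold in either direction, and its direction turned when reads were scaled to the miRNA reads instead of all clean reads (1.08). miR-19a-3p made up 2.52% (Wilson 95% interval 1.70 to 3.72) of the miR-19 family reads in control and 2.01% (1.37 to 2.96) in PD, so that both libraries read the family almost entirely as miR-19b-3p.

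Because miR-19a-3p differs from miR-19b-3p by 1 base, the tags were searched for other single substitutions. The tags of miR-19b-3p of 21, 22 and 23 nt had 910 reads in control and 1202 in PD. The single substitution C11T, which gives the miR-19a-3p sequence, had 18 and 22 reads. The other 56 single substitutions of bases 1 to 19 had 17 reads together over both libraries, and none had more than 2. The 40 reads of the miR-19a-3p sequence thus exceeded the count of every other substituted form.

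The miR-18 family was carried by its 2 members at similar levels in control, and their order turned in PD. miR-18a-5p had 280 reads in control and 359 in PD, or 14.8 RPM (13.2 to 16.7) and 17.1 RPM (15.4 to 19.01). miR-18b-5p had 287 and 229 reads, or 15.2 RPM (13.5 to 17.1) and 10.9 RPM (9.56 to 12.4). In control the 2 levels lay within each other's intervals, whereas in PD miR-18a-5p was above miR-18b-5p with no overlap of the intervals.

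The fold change of miR-18b-5p was 0.719 (0.602 to 0.858), with an adjusted p of 7.12e-04 by the exact binomial test. It no longer passed with hairpin reads (0.824) or reads of 20 to 24 nt (0.871) as denominator. The class of 20 to 24 nt replaced only the denominator, and the count of miR-18b-5p kept its tags of 18 and 19 nt. These held 47.4% and 16.7% of miR-18b-5p reads in control, and 41.9% and 16.2% in PD. For miR-18a-5p the fold change was 1.16 (0.985 to 1.36), with an adjusted p of 0.141 by the same exact test, and it passed under each of the 4 other denominators (1.30 to 1.40). The test of the difference itself, which needs no denominator, gave a ratio of the 2 fold changes of 1.61 (1.26 to 2.04), with an adjusted p of 2.18e-04 (2-sided Fisher's exact test, adjusted over 9 pairs of members, families and cluster mates). The share of miR-18a-5p in the miR-18 family was 49.4% (45.3 to 53.5) in control and 61.1% (57.1 to 64.9) in PD. The ratio was no longer called with counting restricted to tags of at least 21 nt (1.43, 0.911 to 2.25), which leaves out most miR-18b-5p reads.

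The plot of arm levels sets all 9 mature arms of the 5 hairpins side by side.

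**Figure D1:**
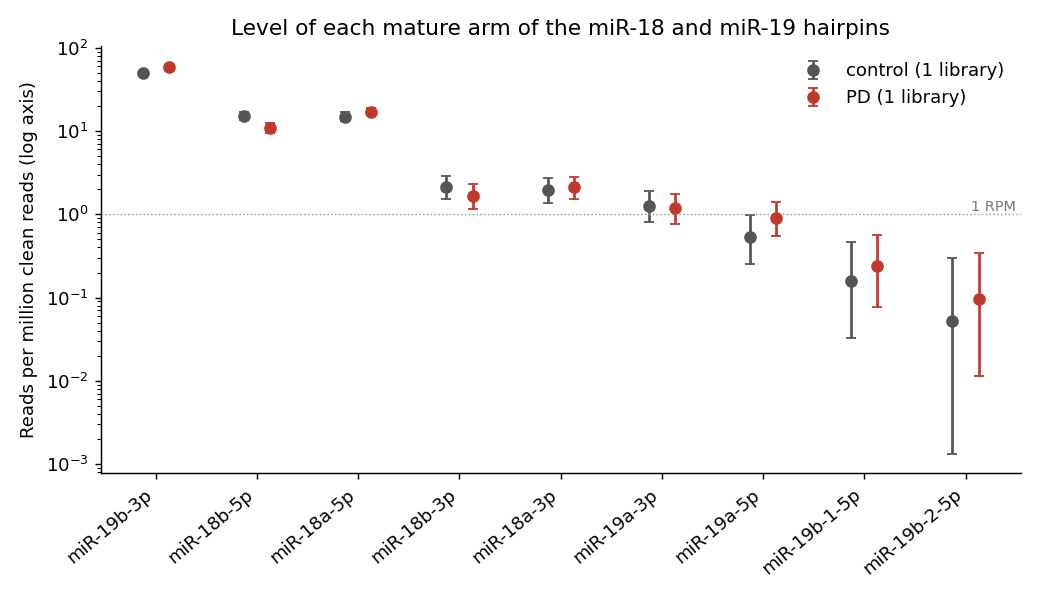
RPM of clean reads (log axis) of each mature arm in the control library (grey) and the PD library (red), with exact Poisson 95% intervals as bars and 1 library per treatment. miR-19b-3p stood highest in both (49.2 and 58.1 RPM), miR-18b-5p and miR-18a-5p changed places, and the 3 arms at the right were below 1 RPM, the dotted line, in both libraries.

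Summed as seed families, the members lay close to the control level for miR-18 and above it for miR-19. The miR-18 family, miR-18a-5p and miR-18b-5p together, had 567 reads in control and 588 in PD, or 30.0 and 28.1 RPM. Its fold change of 0.934 (0.831 to 1.05) had an interval that held 1, and its direction turned under the other denominators, from 1.05 with DESeq2 size factors to 1.13 with the reads of 20 to 24 nt. The miR-19 family had 953 and 1241 reads, or 50.5 and 59.3 RPM, with a fold change of 1.17 (1.08 to 1.28). Under the other denominators this was between 1.32 and 1.42. The fold change of the miR-19 family over that of the miR-18 family was 1.26 (1.09 to 1.45), and 1.07 (0.897 to 1.27) with tags shorter than 21 nt left out.

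The other arms of these hairpins, usually degraded, were all under 3 RPM. miR-18a-3p had 37 reads in control and 44 in PD (1.96 and 2.10 RPM), with a fold change of 1.07 (0.676 to 1.71, adjusted p = 0.896, exact binomial test). miR-18b-3p had 40 and 35 reads (2.12 and 1.67 RPM), with a fold change of 0.788 (0.486 to 1.27, adjusted p = 0.502, exact binomial test). Neither differed between the libraries beyond counting error, and each stood on the same side of 1 as the 5p arm of its hairpin.

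The arm balance was alike for the miR-18 hairpins and differed for miR-19. miR-18a-5p took 88.3% of the arm reads of Mir18 in control and 89.1% in PD, and miR-18b-5p took 87.8% and 86.7% of those of Mir18b. In the miR-19 hairpins the 3p arm carried most reads instead, and the 5p arms of Mir19b-1 and Mir19b-2 together held 0.429% (0.167 to 1.10) and 0.572% (0.278 to 1.18) of the miR-19b reads. For Mir19a the 5p arm was less uneven, at 29.4% (16.8 to 46.2) of the arm reads in control and 43.2% (29.7 to 57.8) in PD, with overlapping intervals.

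Of the 9 arms, 3 stayed under 1 RPM and were left out of the counts of detected miRNAs. miR-19a-5p had 10 reads in control and 19 in PD (0.530 and 0.907 RPM), with a fold change of 1.71 (0.757 to 4.12). miR-19b-1-5p had 3 and 5 reads (a fold change of 1.502, 0.292 to 9.67), and miR-19b-2-5p had 1 and 2 reads (1.80, 0.0938 to 106). All 3 intervals held 1, so that these fold changes were not distinguishable from no difference at this depth. These 5p arms tell Mir19b-1 from Mir19b-2, but the ratio of their fold changes was 0.833 (0.0106 to 24.1). Of the miR-19b-3p tags, 4 of 14 matched a single copy, with 2 reads in control and 0 in PD for Mir19b-1 and 2 and 2 reads for Mir19b-2. The other miR-19b-3p reads cannot be assigned to either copy.

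Of the 6 detected member arms, none reached 1.5-fold in either direction. Among all 499 detected miRNAs, 30 were 1.5-fold or more higher in PD (6.01%) and 69 were 1.5-fold or more lower (13.8%). By an adjusted p under 0.05 of the exact binomial test, 1 of the 6 was higher (miR-19b-3p) and 1 was lower (miR-18b-5p), against 46 higher (9.22%) and 180 lower (36.1%) of the 499. These backgrounds turned with the denominator, to 59 called higher and 23 lower at 1.5-fold with reads of 20 to 24 nt, 48 and 30 with hairpin reads, and 43 and 34 with TMM or DESeq2 size factors. Of the 6, 3 had a fold change above 1 and 3 below it, and their median log2 fold change was 0.0040, beside -0.17 over all detected miRNAs. With 6 arms, these counts are a description of the members.

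The hairpins that share the 2 transcripts with the members, here called cluster mates, are Mir17, Mir20a and Mir92-1 on chromosome 14 and Mir106a, Mir20b, Mir92-2 and Mir363 on the X chromosome. miR-17-5p, miR-20a-5p, miR-106a-5p and miR-20b-5p have a common seed family that is known for promoting the G1 to S transition in mESCs. miR-17-5p was at 116 RPM in control and 97.2 RPM in PD (fold change 0.840). miR-20a-5p was at 55.6 and 47.8 RPM (0.861), miR-106a-5p at 31.1 and 26.1 RPM (0.841) and miR-20b-5p at 46.8 and 38.2 RPM (0.816). These 4, from both chromosomes, thus lay between 0.816 and 0.861.

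The most abundant mates were miR-92a-3p, which is encoded in both clusters and is known for its role in vessel growth, and miR-363-5p of the X cluster. miR-92a-3p was at 1696 RPM in control and 1021 RPM in PD (0.602), and was the only main arm of the mates past 1.5-fold, while miR-363-5p was at 974 and 853 RPM (0.876). With all clean reads as denominator, all 6 main arms of the mates were lower in PD with an adjusted p under 0.05 by the exact binomial test. Under each of the 4 other denominators miR-92a-3p alone was, at between 0.677 and 0.729 and so no longer past 1.5-fold, and with reads of 20 to 24 nt 4 of the 6 lay above 1 (miR-363-5p highest, at 1.06). Over all arms of the mates, 12 were detected, 11 of them lower in PD, with a median log2 fold change of -0.31, and the exception was miR-106a-3p at 1.64 and 1.96 RPM. With all clean reads as denominator, 2 of the 12 were past 1.5-fold, both lower, miR-92a-3p and the less abundant arm of Mir363. This arm, miR-363-3p, was at 147 RPM in control and 94.3 RPM in PD (0.640).

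Fold changes of members and mates of a single transcript were therefore set against each other. On chromosome 14, miR-18a-5p (1.16) and miR-19a-3p (0.938) stood beside miR-17-5p (0.840) and miR-20a-5p (0.861). On the X chromosome, miR-18b-5p (0.719) stood beside miR-106a-5p (0.841), miR-20b-5p (0.816) and miR-363-5p (0.876). Of the less abundant arms of the mates, those detected on chromosome 14 were miR-17-3p (0.711) and miR-92a-1-5p (0.756). On the X chromosome they were miR-363-3p (0.640), miR-20b-3p (0.726), miR-92a-2-5p (0.799) and miR-106a-3p (1.19). miR-19b-3p (1.18), which both transcripts encode, was above every one of the 6 main arms of the mates, and its interval (1.08 to 1.29) overlapped none of theirs.

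The main arms of the mates together had 55088 reads in control and 43642 in PD (0.714, 0.705 to 0.723), with miR-92a-3p holding 58.1% and 49.0% of them. The fold change of the miR-19 family over that of these summed mates was 1.64 (1.51 to 1.79), and 1.35 (1.24 to 1.47) without miR-92a-3p. For the miR-18 family it was 1.31 (1.16 to 1.47), and 1.08 (0.956 to 1.21) without miR-92a-3p. Without miR-92a-3p, the interval of the miR-18 family thus held 1, whereas that of the miR-19 family stayed above 1. miR-92a-3p had the lowest fold change of the mates, so that leaving it out had to lower both ratios. In control, miR-363-5p held 18386 of the 23089 reads that remained. Without it as well, the ratio of the miR-18 family was 1.11 (0.982 to 1.26).

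**Figure D2:**
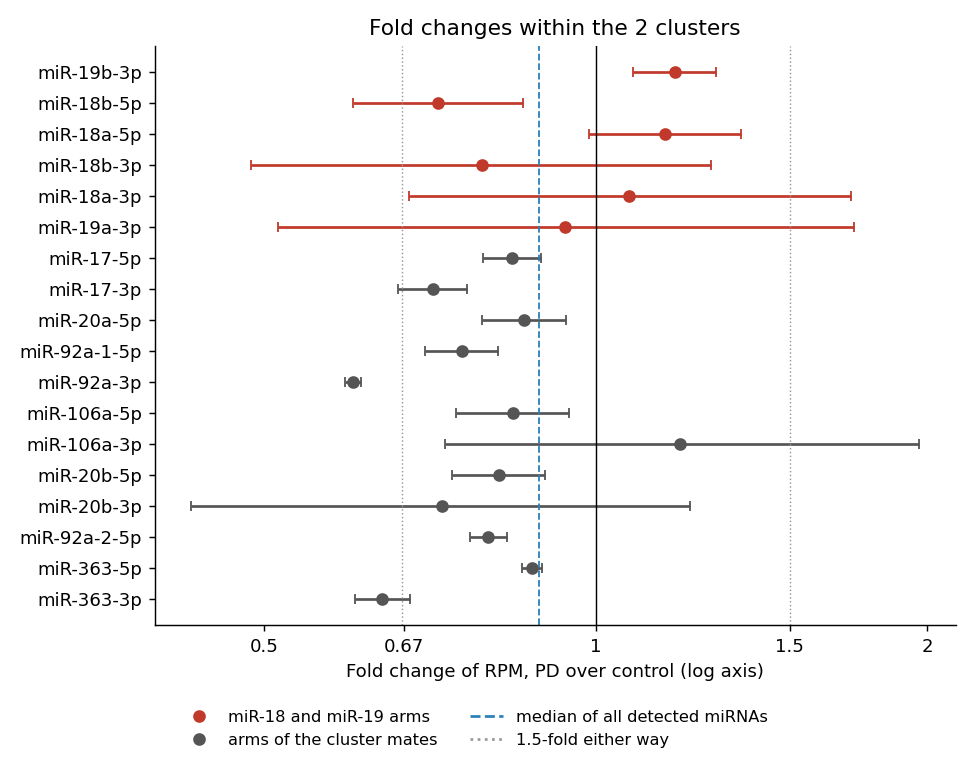
Fold change of RPM, PD over control (log axis), of the 6 detected member arms (red) and the 12 detected arms of the cluster mates (grey), with Clopper-Pearson 95% intervals of the read counts. The dashed line marks the median of all 499 detected miRNAs and the dotted lines 1.5-fold in either direction. miR-19b-3p (1.18) lies right of every main arm of the mates, and miR-18b-5p (0.719) lies left of 1 while miR-18a-5p (1.16) lies right of it.

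Pairs within the families differed less clearly than the miR-18 pair. The fold change of miR-19b-3p over that of miR-19a-3p was 1.26 (0.682 to 2.31, adjusted p = 0.701, Fisher's exact test). The fold change of miR-18a-5p over that of miR-19a-3p, its neighbour on chromosome 14, was 1.23 (0.657 to 2.30, adjusted p = 0.709, Fisher's exact test), and it turned to 0.900 when only the most frequent tag of each arm was counted. For the 2 arms of Mir18 the ratio of 5p over 3p was 1.08 (0.658 to 1.76), and for the 2 arms of Mir19a it was 1.82 (0.643 to 5.32). These wide intervals do not show that the pairs moved alike.

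A mature miRNA is read as several tags that share a first base and end at different 3′ bases, and these were examined for the 3 arms with at least 100 reads in each library. The tags of miR-19b-3p are shown with the 3′ bases beyond their 20 shared bases in capitals, in the T alphabet of the deposited reads.

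miR-19b-3p, 21 nt: tgtgcaaatccatgcaaaacT

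miR-19b-3p, 22 nt: tgtgcaaatccatgcaaaacTG

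miR-19b-3p, 23 nt: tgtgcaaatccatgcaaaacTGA

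The tag of 23 nt, which is the RefSeq mature sequence, had 353 reads in control and 638 in PD (18.7 and 30.5 RPM, fold change 1.63, 1.43 to 1.86). The tag of 22 nt had 303 and 357 reads (1.06, 0.908 to 1.24). The tag of 21 nt had 254 and 207 reads (0.734, 0.608 to 0.886). With all clean reads as denominator, the 3 forms of a single miRNA thus lay on both sides of 1. Of these, only the 23 nt form had an interval above 1. The other denominators multiply each fold change by 1.12 to 1.21, and the forms were not compared under them.

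The share of the 23 nt tag among miR-19b-3p reads was 38.0% (34.9 to 41.2) in control and 52.5% (49.7 to 55.3) in PD, and that of the 21 nt tag 27.3% and 17.02%. Longer tags in PD were seen across the library. Of 297 miRNAs with at least 100 reads in each library, 247 had a longer mean tag in PD, with a median difference of 0.0747 nt (quartiles 0.0126 and 0.188). miR-19b-3p, at 22.1 nt in control and 22.4 nt in PD, had a difference of 0.269 nt, above the upper quartile, and 50 of the other miRNAs had a larger one. The part of this library-wide lengthening in the miR-19b-3p shift was not tested.

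The miR-18 tags are shown in the same way, with the 3′ bases beyond the shortest main tag in capitals.

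miR-18a-5p, 20 nt: taaggtgcatctagtgcaga

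miR-18a-5p, 21 nt: taaggtgcatctagtgcagaT

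miR-18a-5p, 22 nt: taaggtgcatctagtgcagaTA

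miR-18a-5p, 23 nt: taaggtgcatctagtgcagaTAG

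miR-18b-5p, 18 nt: taaggtgcatctagtgct

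miR-18b-5p, 20 nt: taaggtgcatctagtgctGT

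miR-18b-5p, 23 nt: taaggtgcatctagtgctGTTAG

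miR-18a-5p was read mainly as the 21 nt tag, 2 nt shorter than the RefSeq mature sequence. This tag had 146 reads in control and 227 in PD (7.74 and 10.8 RPM, fold change 1.40, 1.13 to 1.74), and its share was 52.1% (46.3 to 57.9) and 63.2% (58.1 to 68.1). The 22 nt tag had 66 and 54 reads (0.737, 0.505 to 1.07), and the 23 nt tag had 57 and 68 reads (1.07, 0.745 to 1.56). The mean tag of miR-18a-5p went against the library, from 21.6 nt in control to 21.5 nt in PD. This difference of -0.112 nt was larger in 289 of the other 296 miRNAs. It rests on 280 reads in control and 359 in PD, and no interval was computed for it.

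miR-18b-5p, in contrast, was read mainly as a tag of 18 nt, the shortest length that the authors kept. This tag had 136 reads in control and 96 in PD (7.21 and 4.58 RPM, fold change 0.636, 0.485 to 0.832), with a share of 47.4% and 41.9%. miR-18a-5p had 2 reads of 18 nt in each library. The 20 nt tag of miR-18b-5p had 52 and 50 reads, and the 23 nt tag, its RefSeq mature sequence, 23 and 18 reads. The lower count of miR-18b-5p in PD was thus largest, in reads, for the shortest form, and forms under 18 nt were not measured.

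The 18 nt tag of miR-18b-5p is set apart from miR-18a-5p by its last base alone, since the first 17 bases of both are the same. Among all tags that start with these 17 bases, base 18 was A in 285 reads in control and 368 in PD, and T in 303 and 234. It was C or G in 0 reads of either library. A tag with T at its end could be miR-18b-5p or 17 bases of miR-18a-5p with an added T, and the 2 cannot be told apart at 18 nt.

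**Figure D3:**
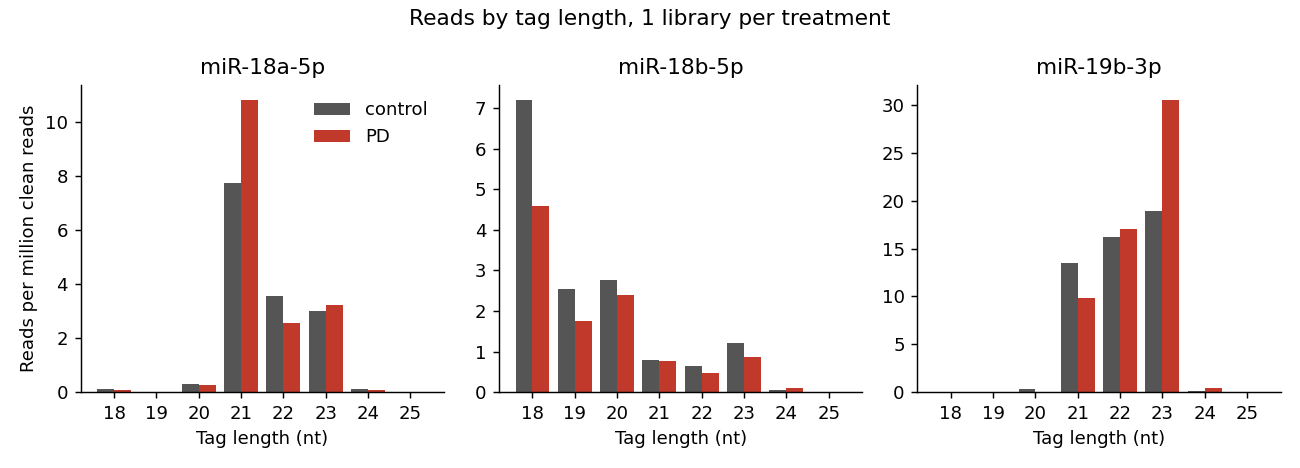
RPM of clean reads against tag length (nt) for miR-18a-5p, miR-18b-5p and miR-19b-3p in the control library (grey bars) and the PD library (red bars), 1 library per treatment, each panel with its own vertical axis from 0. The 21 nt form of miR-18a-5p and the 23 nt form of miR-19b-3p stood higher in PD (10.8 and 30.5 RPM), and the 18 nt form of miR-18b-5p stood lower (4.58 RPM).

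The first base of a miRNA sets its seed, and it was nearly fixed in the abundant arms. The most frequent first base was used by 99.6% and 100% of miR-18a-5p reads in control and PD, 99.7% and 98.3% of miR-18b-5p reads, and 99.0% and 99.2% of miR-19b-3p reads. It was less so in the arms with few reads, such as miR-19a-3p (79.2% and 88.0%) and miR-18a-3p (89.2% and 88.6%), and least in miR-18b-3p, with 47.5% (32.9 to 62.5) in control and 51.4% (35.6 to 67.0) in PD. Its reads that start 1 base later, 11 in control and 7 in PD, have CUGCCCU at bases 2 to 8, which is the seed of miR-18a-3p. A further 5 and 5 reads started 1 base earlier and 5 and 5 started 3 bases later.

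The value of a fold change also depended on the denominator. Scaling to the reads that match hairpins multiplied every fold change by 1.15, to the clean reads of 20 to 24 nt by 1.21, by TMM by 1.12 and by DESeq2 size factors by 1.13. miR-19b-3p remained above 1 by the exact binomial test with each. miR-18a-5p moved to between 1.30 and 1.40 and passed the exact test with each of the 4, with adjusted p from 0.0040 to 1.08e-04. miR-18b-5p stayed below 1 with each, with an adjusted p of 0.0724 by the exact test for the hairpin reads and 0.217 for the reads of 20 to 24 nt. The latter class set the denominator only, and the tags of 18 and 19 nt stayed in the count of miR-18b-5p.

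**Figure D4:**
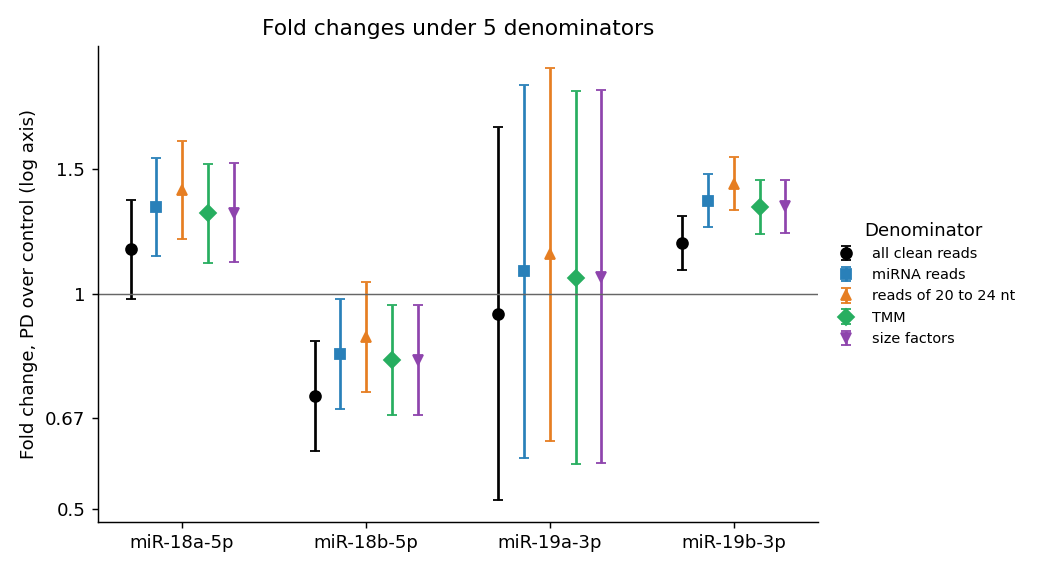
Fold change of RPM, PD over control (log axis), of the 4 main arms under 5 denominators, with Clopper-Pearson 95% intervals of the read counts. The intervals of miR-19b-3p lie above 1 under each denominator, and those of miR-18a-5p under each except all clean reads. Those of miR-18b-5p lie below 1 except with reads of 20 to 24 nt (0.729 to 1.04), and miR-19a-3p crosses 1.

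Outside the 5 hairpins, the detected miRNAs nearest to a member were found by their distance in log2 RPM over the 2 libraries. For miR-18a-5p these were miR-1983-5p (at a distance of 0.0283), miR-186-5p and miR-6539-5p. For miR-19b-3p they were miR-3473b with miR-3473e, which have an identical mature tag (48.5 and 56.2 RPM), miR-23b-5p and miR-196a-5p. For miR-19a-3p they were miR-7658-5p, miR-669b-5p and miR-7021-5p, all at between 1.15 and 1.27 RPM. The 9 distances ran from 0.0283 to 0.165 log2 units, and with 2 libraries such likeness is a description of 2 levels.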

How the data were processed

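The authors gel purified small RNA, ligated adapters and sequenced the libraries. Reads of low quality, from adapters or contamination, or shorter than 18 nt were removed by the authors, who deposited the raw count of clean reads of each distinct tag. These counts were neither aligned nor normalized, and the total given in the last line of each file was left out. Tags were matched with Python 3.11.15 to the hairpins of GENCODE M21 on GRCm38. Folding with ViennaRNA 2.7.2 parted the arms of each hairpin. The mature miRNA was the most frequent tag of an arm, and a tag was counted when it overlapped that by at least 16 nt. Arms with the same mature tag were merged, which gave 1139 miRNAs with reads. RPM, exact binomial, Fisher's exact and Benjamini-Hochberg tests used SciPy 1.17.1. TMM factors came from edgeR 4.0.16 and size factors from DESeq2 1.42.0 in R 4.3.3. Their tests need replicates and were not run.

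With 18870345 and 20944808 clean reads, 3 reads corresponded to 0.159 RPM in control and 0.143 RPM in PD. Alternatives were 4 denominators, other filters and thresholds, and narrower sets of tags. The sums of cluster mates without miR-92a-3p, the mates under other denominators, the mean tag lengths and the searches for substituted tags were added after seeing the data. The arms named were every arm of the 5 hairpins, the main arms of the cluster mates and the 3 nearest miRNAs to miR-18a-5p, miR-19a-3p and miR-19b-3p. Of the other arms of the mates, miR-106a-3p and miR-363-3p were named for their values, and the rest of those detected were named beside them. Members and lists were chosen with earlier results of these data known. The procedure was tested on simulated data.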

Additional observations from a re-analysis of the deposited data

How the results depend on the processing

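No paired analysis was possible because there was 1 library per treatment and no replicate numbers to share. The fold change of the miR-19 family (1.17) became 1.32 with TMM or DESeq2 size factors (1.32 each), 1.35 with hairpin reads, 1.42 with reads of 20 to 24 nt and 1.63 with only the most frequent tag of each arm. That of the miR-18 family (0.934) became 1.05 with DESeq2 size factors, 1.07 with hairpin reads, 1.13 with reads of 20 to 24 nt and 1.11 with tags of 21 nt or more. miR-19a-3p (0.938) turned to 1.06 with DESeq2 size factors, 1.05 with TMM, 1.08 with hairpin reads, 1.14 with reads of 20 to 24 nt and 1.04 with tags that start at its first base. With tags of 21 nt or more, miR-18a-5p over miR-18b-5p was 1.43 and the miR-19 family over the miR-18 family 1.07, both no longer called. The cause was not tested. miR-18a-5p over miR-19a-3p turned to 0.900 with the most frequent tags. The miR-18 family over its mates was 1.08 without miR-92a-3p and 1.11 without miR-92a-3p and miR-363-5p, no longer called.

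Of the detected miRNAs, 30 were called higher in PD and 69 lower. The counts were 10 and 16 at 2-fold, 7 and 25 at 10 RPM or more, 59 and 23 with reads of 20 to 24 nt, 48 and 30 with hairpin reads, and 265 and 297 with no filter on low values. With an adjusted p under 0.05 as well they were 18 and 56, and with TMM or DESeq2 size factors 43 and 34, so that the balance of higher against lower turned under each of the 4 other denominators. Depth limited the arms with few reads, above all miR-19a and the 5p arms of miR-19b. Restriction to the most frequent tags gave no value for arms that then fell under 1 RPM or for the 5p arms of miR-19b, and leaving out tags shared with other hairpins gave none for the cluster mates.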

Other observations

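Reads that lay outside both arms of the member hairpins were few, with 12 in control and 19 in PD. Most of the PD reads were a single 18 nt tag of Mir18, tgaagtagactagcatct, which spans bases 40 to 57 of the hairpin and so fills the loop between the end of RefSeq miR-18a-5p at base 39 and the start of miR-18a-3p at base 58. It had 2 reads in control and 13 in PD (0.106 and 0.621 RPM, a fold change of 5.86 with a 95% interval of 1.33 to 53.5), in a single library each, and it was singled out after its values were seen. A longer form of 21 nt from base 37 to base 57 had 1 and 2 reads.

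Tags with 1 to 3 added 3′ bases that do not match the hairpin were counted separately. Over all miRNAs they made up 10.6% of reads in control and 11.4% in PD. miR-18a-5p was below this, at 1.41% (0.549 to 3.56) and 2.45% (1.29 to 4.58), and so was miR-19b-3p, at 4.62% (3.47 to 6.13) and 4.85% (3.80 to 6.17). miR-18a-3p was above it, at 24.5% (14.6 to 38.1) and 29.0% (19.2 to 41.3), on 12 and 18 tailed reads. The tails of miR-19b-3p were mostly T alone, with 27 reads in control and 47 in PD against 15 and 8 of A alone. An A added to its 22 nt form gives the 23 nt tag, and a T added to the 23 nt form matches Mir19b-2. Neither could be counted as a tail, so that the balance of T and A depends in part on the hairpin sequence. The tails of miR-18b-5p were A alone in 16 of 17 reads in control and 8 of 8 in PD, while a tail of T alone was read 0 times in either library. A T added to the 19, 20 or 23 nt form, or an A added to the 21 nt form, matches the hairpin and could not be counted. For the 18 nt form either base could be counted.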
